A study of Homo sapiens with 12 samples.

Results

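The mitochondrial carrier family moves nucleotides, phosphate, organic acids, amino acids, cofactors and iron across the inner mitochondrial membrane. Its members were taken from a gene table of MIA PaCa-2, a long-established human cell line of pancreatic carcinoma origin. The rule took every symbol that begins with SLC25A and a digit, together with UCP1, UCP2, UCP3, MTCH1 and MTCH2, and left out pseudogenes. It found 56 of 24528 genes, of which 53 were carrier genes and 3 were antisense RNAs named after carriers. A count was present for 52 of the 53 carriers in at least 1 library. UCP1, the uncoupling protein of brown fat, had no count in any library. After a filter on low counts, 47 carriers remained among 15021 tested genes. SLC25A2, SLC25A31, SLC25A47, SLC25A48, SLC25A52 and UCP1 did not pass it. Changes below are given for the 47 that did.

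The cells had been infected for 72 hours with lentiviruses carrying short hairpin RNAs (shRNAs) and were then sorted for the fluorescent tag of the virus. There were 4 groups of 3 libraries, each from 200 ng of total RNA: control cells with a scrambled shRNA, Msi1 knockdown cells with an shRNA against MSI1 and a GFP tag, Msi2 knockdown cells with an shRNA against MSI2 and a Tomato Red tag, and double knockdown cells positive for both tags. MSI1 and MSI2 encode Musashi RNA-binding proteins, which act on the stability and translation of messenger RNAs. All groups carried virus, and the sources used here do not give the tag or sort gate of the control cells, nor the number or sequences of the hairpins. Nothing states that the 3 libraries of a group came from different cultures, so p-values measure the spread among these libraries alone, and that spread may be technical.

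Nearly all members are built from repeats of the same membrane fold and exchange one solute for another. The ADP/ATP carriers and the phosphate carrier supply ATP synthase. The citrate, oxoglutarate and aspartate/glutamate carriers link the mitochondrial and cytosolic pools of carbon, nitrogen and reducing equivalents, which tumour cells draw on for lipid and nucleotide synthesis. Uncoupling proteins and their relatives form another branch, and MTCH1, MTCH2 and SLC25A46 lie in the outer membrane.

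Library totals ran from 10948191 to 56122207 estimated counts, and the smallest was a control library. Levels are counts per 1e6 (CPM) of the scaled library total, and changes are log2 values ± standard error from edgeR with adjusted p over all tested genes. MSI1 stood at 4.13 to 4.93 CPM in control cells, changed by -1.33 ± 0.16 in the Msi1 knockdown and by -1.42 ± 0.15 in the double knockdown, and was higher by 0.41 ± 0.13 in the Msi2 knockdown. MSI2 changed by -2.46 ± 0.09 in the Msi2 knockdown and -2.81 ± 0.09 in the double knockdown, and also by -0.61 ± 0.08 in the Msi1 knockdown. The first component of the deviations from the group means, called the library trend here, took 54.5% of the variance within groups. Each library's score on it ran from -1.54 to -1.05 in the double knockdown and from -0.39 to 1.38 in the other groups, so the trend and the double knockdown cannot be told apart by these libraries. Summed levels of 3 endothelial markers were at most 1.53 CPM and those of 4 blood cell markers at most 2.54 CPM. Fibroblast markers, of which 3 or 4 of 5 were at or above 1 CPM, summed to 549 to 887 CPM. Their sum was highest in the Msi2 knockdown, at 775 to 887. COL1A2 and COL3A1 made up nearly all of it, while COL1A1, DCN and LUM had lower means there than in control. Of 6 epithelial and carcinoma genes, 3 were at or above 1 CPM in each group, KRT8, KRT18 and KRT19. The 6 summed to 3023 to 3441 CPM in the double knockdown against 2319 to 2859 in the other groups. Below 1 CPM, EPCAM and CDH1 had lower means and KRT7 a higher one in the double knockdown than in control. The mesenchymal gene VIM stood at 4842 to 6034 CPM over all libraries. Of 5 pancreatic acinar and duct markers, 1 was at or above 1 CPM in each group, SOX9. The part of these genes in the carrier results was not tested. In sorted bulk cells, fewer cells of a kind and less RNA per cell cannot be told apart.

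In control cells the family was dominated by 3 genes. Scaled to transcript length, SLC25A5 stood at 1065 ± 39.4 TPM (transcripts per 1e6 transcripts; SD, n = 3), SLC25A6 at 969 ± 6.90 and SLC25A3 at 940 ± 26.6. The former pair are ADP/ATP carriers and SLC25A3 is the phosphate carrier. These were followed by SLC25A39, a glutathione carrier, at 354 ± 4.93, MTCH1 at 222 ± 12.2, MTCH2 at 144 ± 8.56 and SLC25A1, the citrate carrier, at 123 ± 7.29. The control libraries of each of the first 6 genes lay above all those of the next gene in the order. SLC25A1, SLC25A36 and SLC25A23 overlapped with their neighbours. Further down, most neighbours overlapped in turn. UCP2 ranked 28th at 19.1 ± 2.38, and the heart and muscle ADP/ATP carrier SLC25A4 ranked 33rd at 15.4 ± 0.26. SLC25A4 was therefore the least abundant of the 3 ADP/ATP carriers that were tested. The testis ADP/ATP carrier SLC25A31 had a single count in 1 double knockdown library and none elsewhere. UCP3, at 0.51 ± 0.27, and SLC25A27, at 0.61 ± 0.12, were near the lower end. The choice of transcript matters for these levels: with each gene's longest transcript in place of its principal one, SLC25A3 was at 317 TPM and kept rank 3, while SLC25A46 went from rank 10 to 19 and SLC25A29 from 15 to 28. SLC25A3, SLC25A5 and SLC25A6 have near-identical copies elsewhere in the genome, so their estimates depend on how shared reads were split.

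**Figure D1:**
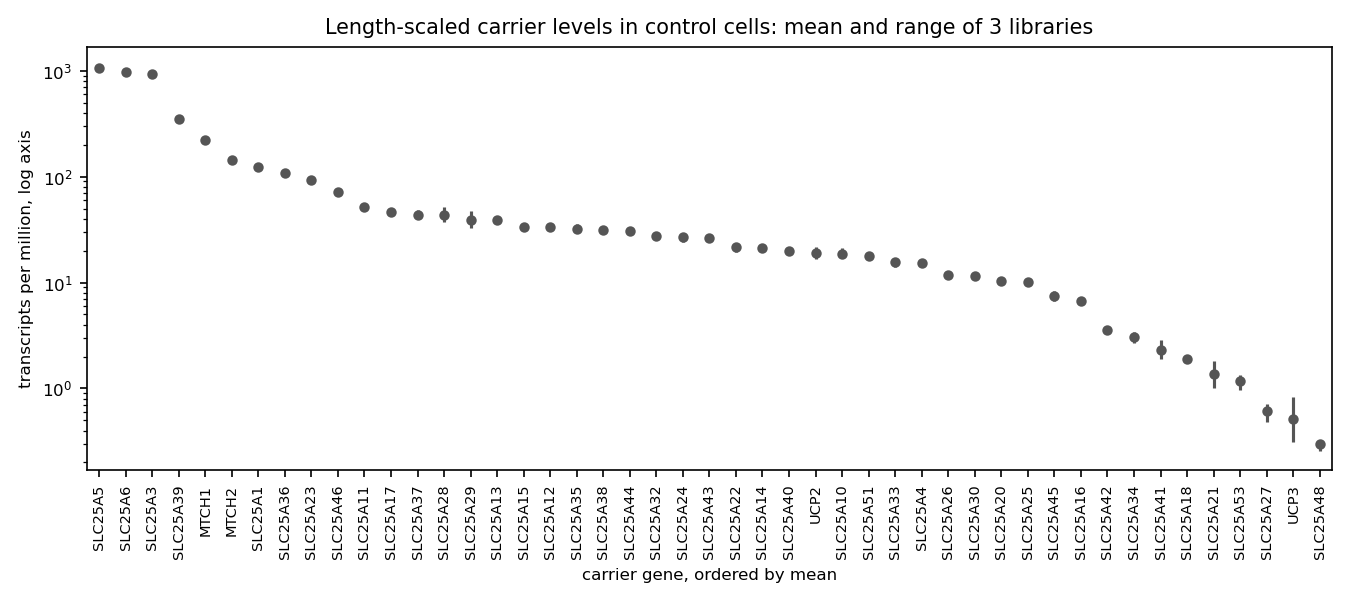
Length-scaled level (TPM, log axis) of carriers with a count in every control library, ordered by mean; points are means and lines the range of the 3 control libraries. SLC25A5, SLC25A6 and SLC25A3 stand between 940 and 1065, well above SLC25A39 at 354.

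The carriers did not move as a block in any knockdown. Of the 47, 10 rose and 13 fell in the Msi1 knockdown at an adjusted p of 0.05, against 39.3% of all tested genes called in either direction (18.5% higher and 20.9% lower). In the Msi2 knockdown 7 rose and 7 fell, against 30.3% of all tested genes (16.7% higher and 13.6% lower). In the double knockdown 17 rose and 11 fell, against 51.9% of all tested genes (26.6% higher and 25.3% lower). The median carrier changed by -0.04 in each single knockdown and by 0.06 in the double knockdown, beside medians of -0.00, -0.00 and -0.02 over all tested genes. By ranges alone, 10 carriers in the Msi1 knockdown had all libraries above control and 14 all below it, with 47.2% of all tested genes not overlapping. These counts were 7 and 13 in the Msi2 knockdown (38.7% of all tested genes) and 19 and 12 in the double knockdown (59.6%). Called in either direction were 48.9%, 29.8% and 59.6% of carriers in the Msi1, Msi2 and double knockdowns. Over all tested genes these shares were 39.3%, 30.3% and 51.9%. Whether the shares differ was not tested. Most changes were small: a single carrier passed a change of 2-fold in each of the single knockdowns, and 3 did in the double knockdown. The count for the Msi1 knockdown was 15 without control replicate 1, and that for the Msi2 knockdown was 24 after adjustment for the library trend.

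Call patterns differed widely from gene to gene. SLC25A16, SLC25A25 and SLC25A32 were among 4 of 47 carriers (8.51%) that rose in all 3 knockdowns, against 6.08% of all tested genes. SLC25A21 and SLC25A46 (4.26%) fell in all 3, against 5.08%. A further 8 (17%) rose in the double knockdown without passing the test in either single one, against 10.5% of all tested genes, and 3 (6.38%) fell in that way, against 9.68%. For 3 carriers, called changes against control had opposite directions in different knockdowns: UCP2, SLC25A10 and SLC25A37 (6.38%, against 4.93% of all tested genes). In each of these 3, and in SLC25A21, SLC25A32 and SLC25A46, at least 1 of the calls ended in an alternative fit, as given below. There were 6 carriers (12.8%) with no call in any of the 3 comparisons, against 27.1% of all tested genes, among them SLC25A3, the carnitine carrier SLC25A20 and the NAD carrier SLC25A51.

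**Figure D2:**
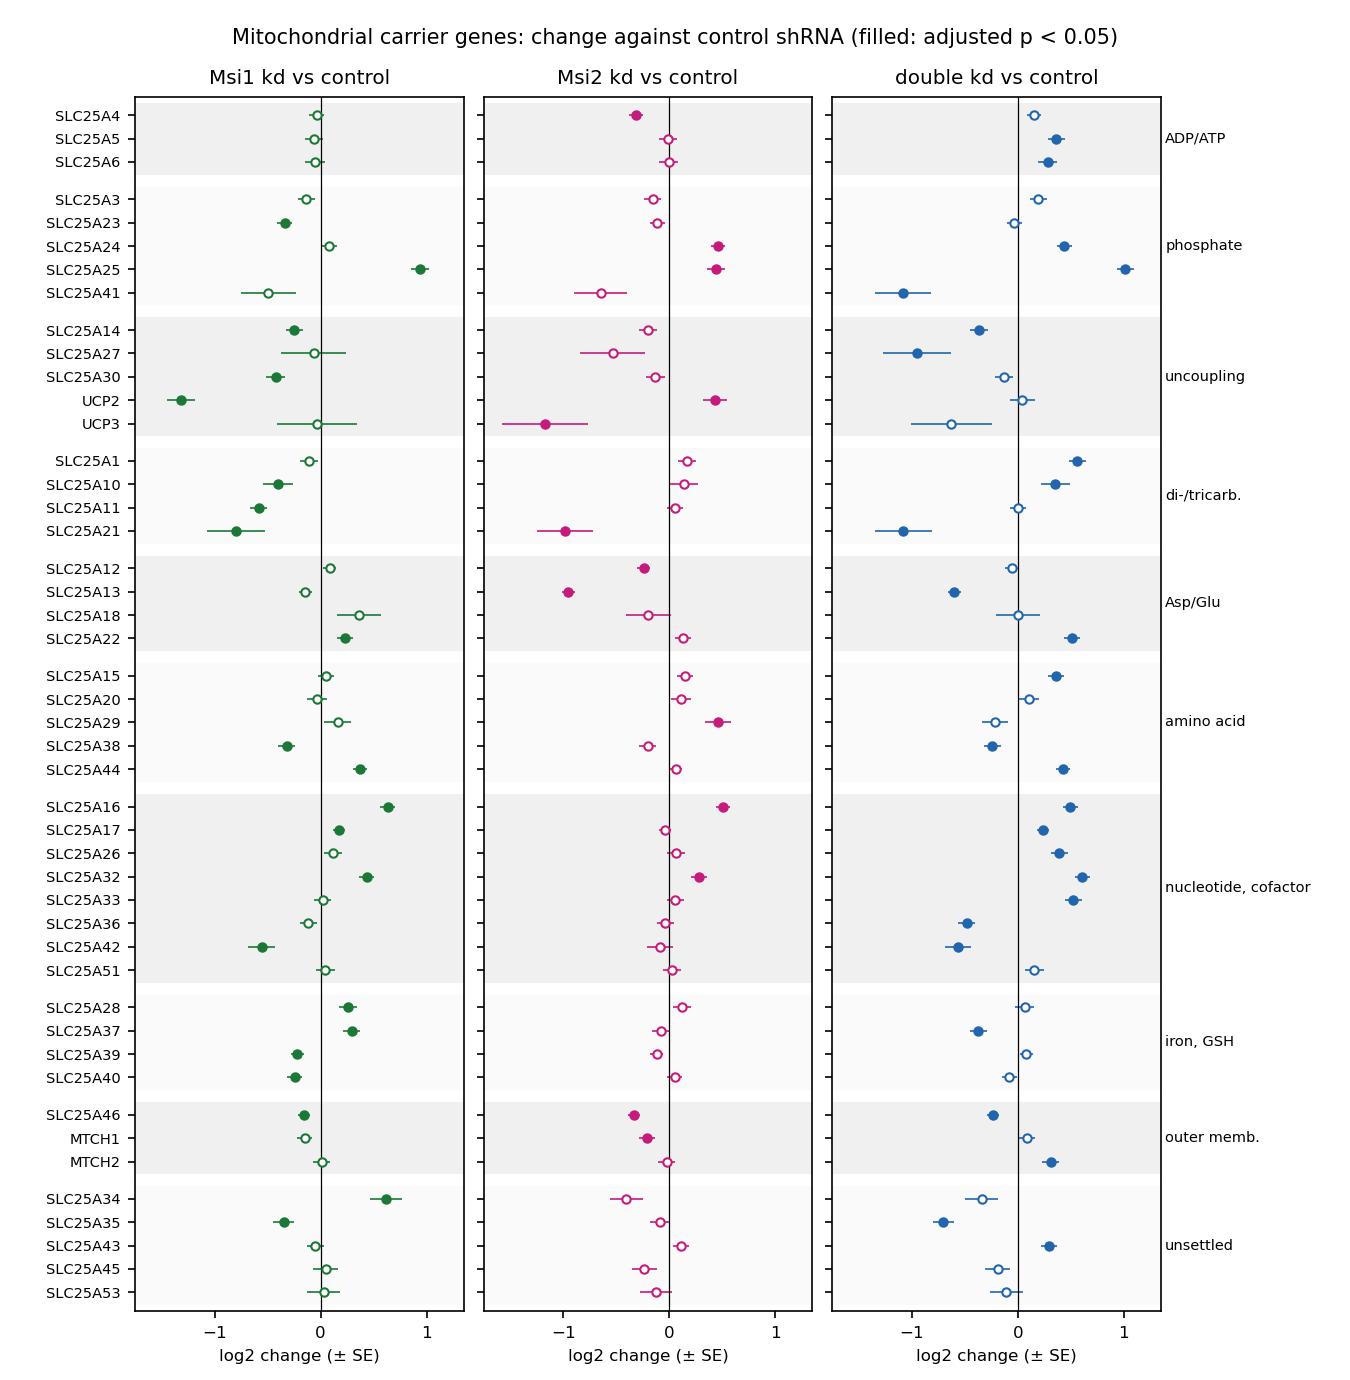
Log2 change against control (± SE) of 46 of the 47 tested carriers in the 3 knockdowns, grouped by what they carry; filled points passed an adjusted p of 0.05. UCP2 at -1.32 in the Msi1 knockdown and SLC25A25 at 0.94 and 1.01 in the Msi1 and double knockdowns stand out, and the nucleotide and cofactor carriers lie mostly to the right in the double knockdown.

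Of the ADP/ATP carriers, the abundant forms rose only modestly and their calls came from the double knockdown. SLC25A5 stood at 504, 470 and 526 CPM in the control libraries, 534, 446 and 458 in the Msi1 knockdown, 492, 448 and 544 in the Msi2 knockdown and 671, 646 and 613 in the double knockdown. The double knockdown libraries were above all others, and the other 3 groups overlapped. The change was 0.36 ± 0.08 (adjusted p = 0.0012) in the double knockdown, -0.06 ± 0.08 in the Msi1 knockdown and -0.01 ± 0.08 in the Msi2 knockdown. SLC25A6 gave 743, 714 and 753 CPM in control and 964, 855 and 867 in the double knockdown, a rise of 0.28 ± 0.09 (adjusted p = 0.015). Its levels were 796, 680 and 653 CPM in the Msi1 knockdown and 766, 630 and 804 in the Msi2 knockdown, both overlapping with control. Neither rise kept its call after adjustment for the library trend, where SLC25A5 changed by 0.12 (adjusted p = 0.079) and SLC25A6 by 0.02 (adjusted p = 0.847). The SLC25A6 call also ended without control replicate 2 (0.24, adjusted p = 0.0709) and without double knockdown replicate 1 (0.23, adjusted p = 0.0829).

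SLC25A4 differed from its relatives. It stood at 25.4, 24.2 and 26.0 CPM in control, 25.7, 24.1 and 23.5 in the Msi1 knockdown, 19.9, 19.2 and 21.5 in the Msi2 knockdown and 27.9, 28.8 and 26.9 in the double knockdown. Every Msi2 knockdown library was below every other one. It fell by 0.31 ± 0.07 on the log2 scale in the Msi2 knockdown (adjusted p = 0.0017), while its change in the double knockdown was 0.15 ± 0.07 (adjusted p = 0.067).

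The phosphate carrier SLC25A3, whose product brings in the phosphate for ATP synthesis, gave 591, 549 and 603 CPM in control and 685, 659 and 646 in the double knockdown. The ranges do not overlap, but the change of 0.19 ± 0.08 had an adjusted p of 0.05 and was just short of a call. It passed with DESeq2 at an adjusted p of 0.0288. It stood at 583, 501 and 502 CPM in the Msi1 knockdown and 521, 474 and 572 in the Msi2 knockdown, with changes of -0.14 ± 0.08 and -0.15 ± 0.08 that did not pass. The former passed without Msi1 knockdown replicate 1 (-0.21, adjusted p = 0.0294).

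The calcium-regulated ATP-Mg/phosphate carriers, which adjust the adenine nucleotide pool of the matrix, moved in different ways. SLC25A25 stood at 13.3, 12.6 and 12.7 CPM in control, 27.0, 23.8 and 23.3 in the Msi1 knockdown, 18.9, 16.4 and 17.2 in the Msi2 knockdown and 26.9, 27.0 and 24.2 in the double knockdown. Control, Msi2 knockdown and the other groups formed steps that did not overlap. It rose by 0.94 ± 0.08 (adjusted p = 4e-08), 0.44 ± 0.08 (adjusted p = 0.00049) and 1.01 ± 0.08 (adjusted p = 1.3e-08), and the Msi1 and double knockdowns did not differ beyond their spread (0.07 ± 0.07, adjusted p = 0.4; 95% interval -0.08 to 0.23). SLC25A24 gave 38.03, 43.1 and 45.1 CPM in control and 46.9, 42.6 and 43.0 in the Msi1 knockdown, which overlapped. It stood at 58.8, 55.3 and 58.6 CPM in the Msi2 knockdown and 54.8, 59.3 and 55.7 in the double knockdown, all above control, with rises of 0.46 ± 0.07 (adjusted p = 4.6e-05) and 0.44 ± 0.07 (adjusted p = 3.3e-05). SLC25A23 fell by 0.34 ± 0.07 in the Msi1 knockdown (adjusted p = 0.001), from 107 to 129 CPM in control to 88.6 to 101, and was not called in the other knockdowns. SLC25A41, the form without a calcium-binding domain, was rare, at 1.21, 1.58 and 1.08 CPM in control, 0.77, 1.01 and 1.05 in the Msi1 knockdown, 0.88, 1.01 and 0.65 in the Msi2 knockdown and 0.81, 0.58 and 0.44 in the double knockdown. Its change there was -1.09 ± 0.26 (adjusted p = 0.002), and -0.60 with an adjusted p of 0.173 after adjustment for the library trend.

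UCP2 was the carrier with the largest change in the Msi1 knockdown and the largest difference between the single knockdowns. UCP2 encodes an uncoupling protein homologue linked to the export of metabolites from the matrix. It stood at 16.8, 12.7 and 15.0 CPM in the control libraries. The Msi1 knockdown libraries gave 7.13, 5.06 and 5.70 CPM, all below every other library. The Msi2 knockdown libraries gave 21.1, 18.1 and 20.9 CPM, all above every other library, and the double knockdown libraries gave 16.9, 14.0 and 14.9, within or at the edge of the control range. The changes were -1.32 ± 0.13 (adjusted p = 1.6e-07), 0.43 ± 0.11 (adjusted p = 0.0073) and 0.04 ± 0.12 (adjusted p = 0.78). The Msi2 knockdown was 1.75 ± 0.12 above the Msi1 knockdown on the log2 scale (adjusted p = 2.5e-09). The rise in the Msi2 knockdown lost its call without control replicate 2 (0.30, adjusted p = 0.069). After adjustment for the library trend the double knockdown value turned to -0.30 (adjusted p = 0.0288).

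The relatives of UCP2 fell or were not called. SLC25A30 stood at 17.2, 14.0 and 15.3 CPM in control, 12.5, 10.9 and 11.3 in the Msi1 knockdown, 14.5, 14.0 and 14.1 in the Msi2 knockdown and 13.0, 15.0 and 14.7 in the double knockdown. The Msi1 knockdown libraries were below all others, a fall of 0.42 ± 0.09 (adjusted p = 0.00097). SLC25A14, a brain-enriched relative, fell by 0.25 ± 0.08 in the Msi1 knockdown (adjusted p = 0.024) and by 0.37 ± 0.08 in the double knockdown (adjusted p = 0.001). Neither call held in every alternative: the former ended without control replicate 1, 2 or 3 or Msi1 knockdown replicate 3 (adjusted p of 0.0618, 0.0632, 0.0539 and 0.0952), and the latter after adjustment for the trend (-0.25, adjusted p = 0.058). SLC25A27 and UCP3 were close to the limit of detection, with at most 30 and 19 counts in a library. SLC25A27 stood at 0.53, 0.76 and 0.72 CPM in control, 0.52, 0.76 and 0.58 in the Msi1 knockdown, 0.50, 0.52 and 0.33 in the Msi2 knockdown and 0.24, 0.37 and 0.41 in the double knockdown. Double knockdown values were below those of control (-0.95 ± 0.32, adjusted p = 0.019), and lost its call without control replicate 2 (-0.82, adjusted p = 0.1) and without double knockdown replicate 1 (-0.73, adjusted p = 0.0932). After adjustment for the library trend it was -0.38 (adjusted p = 0.526). UCP3 stood at 0.39, 0.30 and 0.81 CPM in control, 0.27, 0.48 and 0.51 in the Msi1 knockdown, 0.20, 0.17 and 0.20 in the Msi2 knockdown and 0.26, 0.25 and 0.31 in the double knockdown. The Msi2 knockdown libraries were the lowest (-1.17 ± 0.40, adjusted p = 0.033). That call ended without control replicate 1 or 3 or any one Msi2 knockdown library, with adjusted p from 0.0602 to 0.124.

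**Figure D3:**
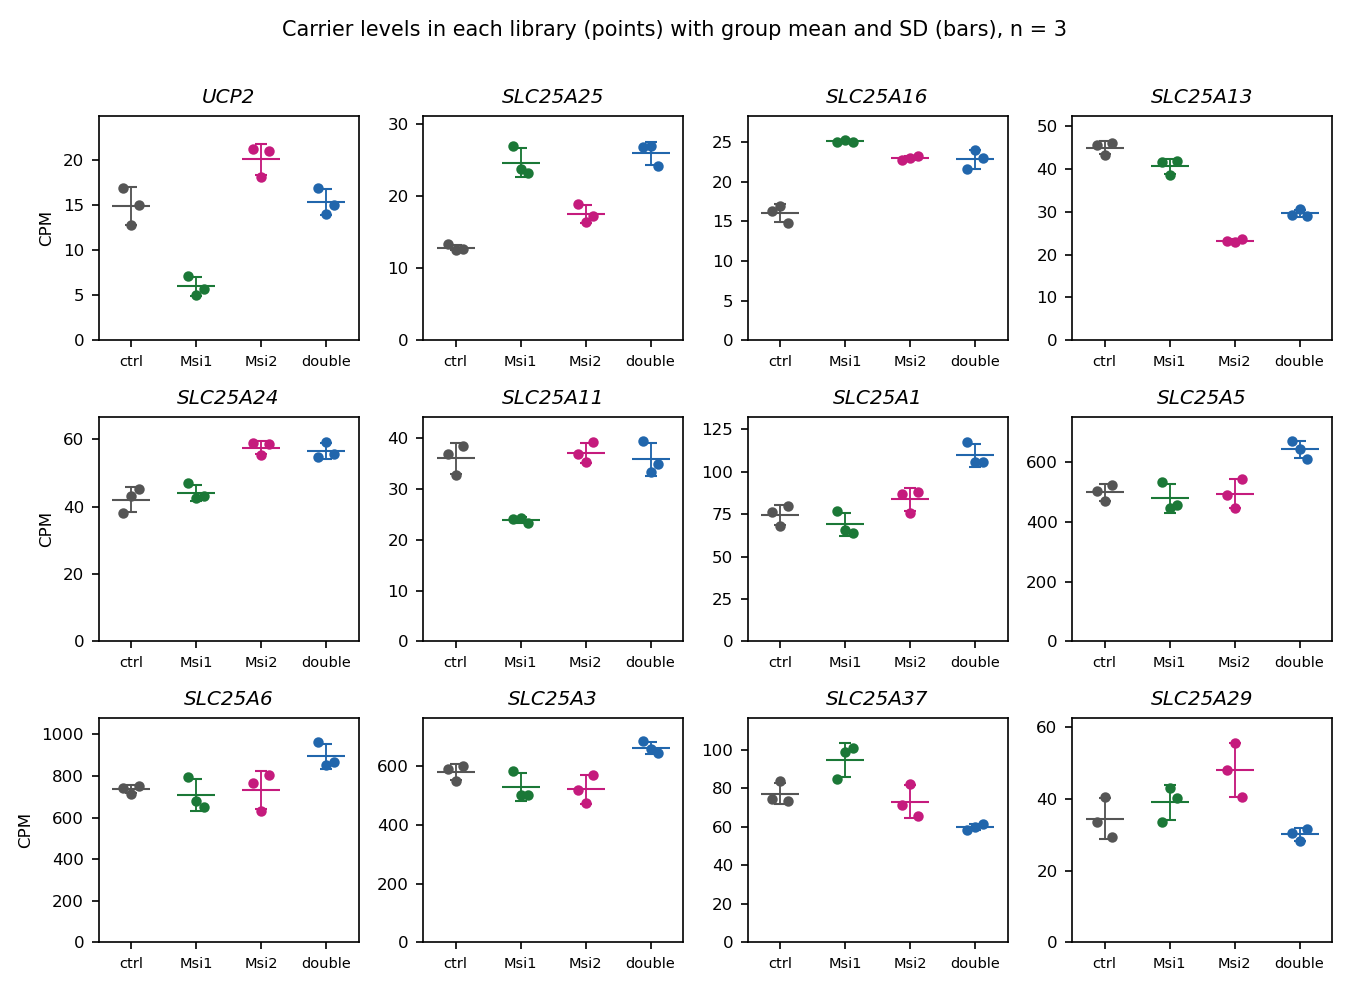
CPM (linear axes from 0) of 12 carriers in each library; points are libraries, horizontal bars group means and vertical bars SD (n = 3). UCP2 stands at 5.06 to 7.13 in the Msi1 knockdown and 18.1 to 21.1 in the Msi2 knockdown, and SLC25A5, SLC25A6, SLC25A3 and SLC25A1 are highest in the double knockdown.

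Of 4 di- and tricarboxylate carriers, none rose and 3 fell in the Msi1 knockdown, against 18.5% and 20.9% of all tested genes. None rose and 1 fell in the Msi2 knockdown (16.7% and 13.6% of all tested genes), and 2 rose and 1 fell in the double knockdown (26.6% and 25.3%). SLC25A11, the oxoglutarate/malate carrier of the malate-aspartate shuttle, stood at 37.0, 32.7 and 38.6 CPM in control and 24.1, 24.3 and 23.3 in the Msi1 knockdown. The Msi2 and double knockdowns gave 36.8, 35.4 and 39.2 and 39.4, 33.3 and 34.9 CPM, both overlapping with control. Its change in the Msi1 knockdown was -0.58 ± 0.08 (adjusted p = 7.1e-06), and it was near zero in the Msi2 (0.05 ± 0.08) and double (0.00 ± 0.08) knockdowns. SLC25A1, which exports citrate for fatty acid and sterol synthesis, gave 76.5, 68.1 and 79.5 CPM in control, 76.9, 65.8 and 64.1 in the Msi1 knockdown, 87.2, 75.8 and 88.3 in the Msi2 knockdown and 118, 106 and 106 in the double knockdown. The double knockdown was above all other libraries, and the rise of 0.56 ± 0.08 (adjusted p = 1.3e-05) was 0.31 after adjustment for the trend (adjusted p = 0.000175). Its change in the Msi1 knockdown passed without Msi1 knockdown replicate 1 (-0.20, adjusted p = 0.0493), and that in the Msi2 knockdown without Msi2 knockdown replicate 2 (0.23, adjusted p = 0.0384).

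SLC25A10, the dicarboxylate carrier, moved both ways with weak support. It stood at 12.4, 11.5 and 15.0 CPM in control, 11.8, 7.07 and 10.1 in the Msi1 knockdown, 14.0, 12.8 and 15.2 in the Msi2 knockdown and 16.5, 15.9 and 16.3 in the double knockdown. The values in the Msi1 knockdown overlapped with control, and that change of -0.40 ± 0.14 (adjusted p = 0.031) ended without control replicate 1 or 3 or Msi1 knockdown replicate 2 or 3, with adjusted p from 0.0745 to 0.193, and after adjustment for the trend (-0.21, adjusted p = 0.127). The rise of 0.36 ± 0.13 in the double knockdown (adjusted p = 0.033) ended without control replicate 1 or 2 or any one double knockdown library, with adjusted p from 0.068 to 0.189, and was 0.03 after adjustment for the library trend. SLC25A21, the oxoadipate carrier, gave 1.29, 1.02 and 1.89 CPM in control, 0.71, 0.68 and 0.87 in the Msi1 knockdown, 0.88, 0.47 and 0.66 in the Msi2 knockdown and 0.62, 0.53 and 0.70 in the double knockdown, from 21 to 46 counts in a library. It fell by 0.80 ± 0.27 (adjusted p = 0.025), 0.98 ± 0.27 (adjusted p = 0.0082) and 1.08 ± 0.27 (adjusted p = 0.0025). The call in the Msi1 knockdown ended without control replicate 1 or 3 or Msi1 knockdown replicate 1 or 2, with adjusted p from 0.0514 to 0.0946, and after adjustment for the trend (-0.60, adjusted p = 0.103). Its exons overlap those of SLC25A21-AS1 on the other strand. The sources used here do not say whether the libraries kept strand, so reads of such pairs cannot be told apart.

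Both aspartate/glutamate carriers fell in the Msi2 knockdown. SLC25A13 (citrin), which hands mitochondrial aspartate to the cytosol, stood at 45.6, 43.3 and 46.2 CPM in control, 41.6, 38.7 and 41.9 in the Msi1 knockdown, 23.1, 23.0 and 23.6 in the Msi2 knockdown and 29.4, 30.6 and 29.1 in the double knockdown. No groups overlapped, and the levels in the Msi2 knockdown were the lowest. It fell by 0.95 ± 0.06 in the Msi2 knockdown (adjusted p = 1.7e-09), and by 0.60 ± 0.06 in double knockdown cells (adjusted p = 1.9e-07), while the change of -0.14 ± 0.06 in the Msi1 knockdown did not pass (adjusted p = 0.063). The level in the double knockdown was 0.35 ± 0.06 above that in the Msi2 knockdown (adjusted p = 0.00012). The paralogue SLC25A12 (aralar) gave 37.4, 34.8 and 37.1 CPM in control, 38.5, 38.4 and 38.8 in the Msi1 knockdown, 32.7, 29.95 and 29.8 in the Msi2 knockdown and 36.1, 35.0 and 33.7 in the double knockdown. It fell only by 0.24 ± 0.06 in the Msi2 knockdown (adjusted p = 0.0062).

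The glutamate carrier SLC25A22 stood at 23.9, 23.1 and 20.4 CPM in control, 27.8, 26.3 and 25.7 in the Msi1 knockdown, 26.1, 23.9 and 24.8 in the Msi2 knockdown and 34.8, 31.5 and 30.8 in the double knockdown. The double knockdown libraries were above all others, with a rise of 0.51 ± 0.07 (adjusted p = 1.2e-05). Its rise of 0.23 ± 0.07 in the Msi1 knockdown (adjusted p = 0.02) ended without control replicate 3 (adjusted p = 0.0767) and without Msi1 knockdown replicate 1 (adjusted p = 0.0635). The second glutamate carrier, SLC25A18, stood at 1.06 to 2.19 CPM over all libraries and was not called against control.

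Of 5 carriers of other amino acids and carnitine, 2, 1 and 3 were called in the Msi1, Msi2 and double knockdowns, against 39.3%, 30.3% and 51.9% of all tested genes. SLC25A44, which carries branched-chain amino acids, stood at 39.3, 37.0 and 40.6 CPM in control and 41.3, 40.1 and 40.1 in the Msi2 knockdown, but at 51.8, 49.0 and 49.5 in the Msi1 knockdown and 55.6, 52.0 and 48.6 in the double knockdown. It rose by 0.37 ± 0.06 (adjusted p = 0.00013) and 0.42 ± 0.06 (adjusted p = 1.9e-05) in those 2 groups. SLC25A29, a carrier of basic amino acids, gave 33.4, 40.5 and 29.2 CPM in control, 33.5, 43.1 and 40.2 in the Msi1 knockdown, 48.1, 55.4 and 40.5 in the Msi2 knockdown and 30.5, 28.1 and 31.4 in the double knockdown. The rise in the Msi2 knockdown was 0.46 ± 0.12 (adjusted p = 0.01), with the highest control library and the lowest knockdown library almost level, and the change in the double knockdown was -0.21 ± 0.13. The latter passed without control replicate 3 (-0.31, adjusted p = 0.0473). SLC25A15, the ornithine carrier, rose by 0.36 ± 0.07 in the double knockdown (adjusted p = 0.00046).

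SLC25A38, a glycine carrier of haem synthesis, fell by 0.32 ± 0.08 in the Msi1 knockdown (adjusted p = 0.0039) and by 0.24 ± 0.08 in double knockdown cells (adjusted p = 0.017). The latter call ended without control replicate 1 (adjusted p = 0.0648) and without double knockdown replicate 3 (adjusted p = 0.0754). SLC25A20, which brings acylcarnitines in for fatty acid oxidation, stood at 7.34, 7.29 and 6.74 CPM in control, 7.21, 6.67 and 7.23 in the Msi1 knockdown, 7.73, 7.20 and 8.33 in the Msi2 knockdown and 8.33, 7.53 and 7.31 in the double knockdown, and the groups overlapped with control. Its changes were -0.03 ± 0.10, 0.11 ± 0.09 and 0.11 ± 0.09, with a 95% interval of -0.09 to 0.30 in the double knockdown.

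Of 9 nucleotide and cofactor carriers, 4 rose and 1 fell in the Msi1 knockdown, against 18.5% and 20.9% of all tested genes. In the Msi2 knockdown 3 rose and none fell, against 16.7% and 13.6%, and in the double knockdown 6 rose and 2 fell, against 26.6% and 25.3%. SLC25A16, linked to the import of coenzyme A, stood at 16.4, 16.9 and 14.8 CPM in control, 25.1, 25.3 and 25.0 in the Msi1 knockdown, 22.8, 23.0 and 23.3 in the Msi2 knockdown and 21.6, 24.0 and 23.0 in the double knockdown. All 9 knockdown libraries were above control, with rises of 0.63 ± 0.07 (adjusted p = 7.2e-07), 0.51 ± 0.07 (adjusted p = 1.7e-05) and 0.49 ± 0.07 (adjusted p = 9.2e-06).

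SLC25A32, which brings folate into mitochondria, had its highest levels in the double knockdown. It stood at 28.0, 30.2 and 29.2 CPM in control, 41.5, 38.1 and 38.4 in the Msi1 knockdown and 34.5, 33.0 and 38.7 in the Msi2 knockdown, and the last 2 groups overlapped. It rose by 0.43 ± 0.07 in the Msi1 knockdown, by 0.28 ± 0.07 in Msi2 knockdown cells and by 0.61 ± 0.07 in the double knockdown, where it stood at 43.4, 47.2 and 42.7 CPM. The Msi2 knockdown value had an adjusted p of 0.0058, and of 0.0643 without control replicate 1. SLC25A33, a pyrimidine nucleotide carrier, was called in the double knockdown alone, at 32.2, 32.4 and 33.1 CPM against 24.0, 22.7 and 20.4 in control (0.52 ± 0.08, adjusted p = 2.6e-05). It stood at 25.4, 21.1 and 22.3 CPM in the Msi1 knockdown and 23.1, 22.0 and 25.6 in the Msi2 knockdown, overlapping with control. The second pyrimidine nucleotide carrier, SLC25A36, had the opposite change: 119, 142 and 137 CPM in the double knockdown against 174, 196 and 187 in control, or -0.48 ± 0.08 (adjusted p = 5.3e-05). SLC25A26, the S-adenosylmethionine carrier, rose by 0.39 ± 0.08 in the double knockdown (adjusted p = 0.00057).

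SLC25A42, a coenzyme A carrier like SLC25A16, went the other way from it. It stood at 3.92, 3.74 and 4.58 CPM in control, 2.77, 2.54 and 2.87 in the Msi1 knockdown, 3.74, 3.71 and 3.83 in the Msi2 knockdown and 2.95, 2.58 and 2.51 in the double knockdown. It fell by 0.55 ± 0.13 (adjusted p = 0.0018) and 0.57 ± 0.12 (adjusted p = 0.00082) in the Msi1 and double knockdowns. SLC25A17, the member of the peroxisomal membrane, rose by 0.24 ± 0.06 in the double knockdown (adjusted p = 0.0024). Its rise of 0.17 ± 0.06 in the Msi1 knockdown (adjusted p = 0.025) ended without control replicate 1 or 2 or Msi1 knockdown replicate 2 or 3, with adjusted p from 0.0523 to 0.0899.

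Of 4 iron and glutathione carriers, 2 rose and 2 fell in the Msi1 knockdown, where 39.3% of all tested genes were called. None was called by edgeR in the Msi2 knockdown (30.3% of all tested genes), where none had an unadjusted p under 0.05 and none was called with DESeq2, and 1 fell in the double knockdown (51.9%). SLC25A37 (mitoferrin-1), an iron importer, stood at 74.7, 83.6 and 73.4 CPM in control, 84.7, 98.7 and 101 in the Msi1 knockdown, 71.5, 82.5 and 65.4 in the Msi2 knockdown and 58.3, 59.8 and 61.4 in the double knockdown. It rose by 0.29 ± 0.08 in the Msi1 knockdown (adjusted p = 0.0082) and fell by 0.37 ± 0.08 in the double knockdown (adjusted p = 0.00097). After adjustment for the library trend these values were 0.12 (adjusted p = 0.0564) and -0.09 (adjusted p = 0.233). SLC25A28 (mitoferrin-2) gave 22.4, 26.7 and 20.04 CPM in control, 25.3, 28.5 and 30.1 in the Msi1 knockdown, 25.8, 25.5 and 24.9 in the Msi2 knockdown and 25.9, 24.1 and 23.3 in the double knockdown. All groups overlapped with control. The rise in the Msi1 knockdown, of 0.26 ± 0.09 (adjusted p = 0.026), ended without control replicate 1 or 3 or Msi1 knockdown replicate 2 or 3, with adjusted p from 0.0682 to 0.101, and after adjustment for the trend (0.15, adjusted p = 0.115).

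The glutathione carriers SLC25A39 and SLC25A40 fell by 0.22 ± 0.06 (adjusted p = 0.0077) and 0.25 ± 0.07 (adjusted p = 0.011) in the Msi1 knockdown. For SLC25A39 the call ended without control replicate 1 (adjusted p = 0.0535) or Msi1 knockdown replicate 3 (adjusted p = 0.0722), and for SLC25A40 without control replicate 1 (adjusted p = 0.0634) or Msi1 knockdown replicate 2 (adjusted p = 0.0865).

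In the outer membrane, SLC25A46, a factor of mitochondrial shape, stood at 62.9, 60.4 and 64.9 CPM in control, 56.4, 56.2 and 55.9 in the Msi1 knockdown, 48.4, 49.7 and 50.6 in the Msi2 knockdown and 51.7, 55.5 and 52.9 in the double knockdown. No groups overlapped. It fell by 0.34 ± 0.06 in the Msi2 knockdown (adjusted p = 0.00015), by 0.23 ± 0.06 in the double knockdown (adjusted p = 0.002) and by 0.16 ± 0.06 in the Msi1 knockdown (adjusted p = 0.034). The last of these ended when any one of the Msi1 knockdown libraries or control replicate 1 or 3 was left out, with adjusted p from 0.0576 to 0.137. MTCH2, an insertase for outer membrane proteins, gave 134, 129 and 149 CPM in control, 155, 128 and 131 in the Msi1 knockdown, 136, 125 and 143 in the Msi2 knockdown and 176, 170 and 164 in the double knockdown. Its rise of 0.31 ± 0.08 in the double knockdown (adjusted p = 0.0023) was 0.09 after adjustment for the trend (adjusted p = 0.256). MTCH1 fell by 0.21 ± 0.07 in the Msi2 knockdown (adjusted p = 0.034), a call that ended without control replicate 1 or 3 or Msi2 knockdown replicate 1 or 2, with adjusted p from 0.0809 to 0.15.

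Of the 5 tested members whose substrate is not settled, SLC25A34 and SLC25A35 moved most. SLC25A34 stood at 2.97, 3.68 and 3.42 CPM in control, 5.07, 5.16 and 5.05 in the Msi1 knockdown, 2.74, 2.91 and 1.92 in the Msi2 knockdown and 2.33, 2.90 and 2.70 in the double knockdown. Only in the Msi1 knockdown was it called against control, with a rise of 0.61 ± 0.15 (adjusted p = 0.003). Its change of -0.41 ± 0.16 in the Msi2 knockdown (adjusted p = 0.058) passed without control replicate 1 (-0.52, adjusted p = 0.0483) or Msi2 knockdown replicate 2 (-0.54, adjusted p = 0.019). SLC25A35 stood at 20.7, 23.8 and 20.6 CPM in control, 14.9, 18.8 and 17.7 in the Msi1 knockdown, 20.6, 22.6 and 18.3 in the Msi2 knockdown and 13.3, 12.5 and 14.5 in the double knockdown. It fell by 0.35 ± 0.10 (adjusted p = 0.0079) and 0.70 ± 0.10 (adjusted p = 9e-06), and the first of these ended without control replicate 2 (adjusted p = 0.0526). SLC25A43 rose by 0.29 ± 0.08 in the double knockdown (adjusted p = 0.0031), and by 0.11 with an adjusted p of 0.298 after adjustment for the library trend. Of the antisense RNAs, SLC25A21-AS1 changed by -0.40 ± 0.13 in the double knockdown (adjusted p = 0.018), SLC25A5-AS1 was not called in any comparison, and SLC25A30-AS1 did not pass the filter.

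The knockdowns were also compared with each other. Between the single knockdowns, 10 carriers were higher and 13 lower in the Msi2 than in the Msi1 knockdown, against 41.1% of all tested genes called (22.3% higher and 18.9% lower). All libraries were above those of the Msi1 knockdown for 8 carriers and below them for 14, with 47.6% of all tested genes not overlapping. The largest differences were those of UCP2, SLC25A11 (0.64 ± 0.07, adjusted p = 1.6e-06) and SLC25A10 (0.54 ± 0.13, adjusted p = 0.003) on the higher side. On the lower side were UCP3 (-1.14 ± 0.38, adjusted p = 0.021), SLC25A34 (-1.02 ± 0.14, adjusted p = 1.1e-05) and SLC25A13 (-0.81 ± 0.06, adjusted p = 4.5e-09). The UCP3 difference ended without Msi1 knockdown replicate 2 or 3 or Msi2 knockdown replicate 2, with adjusted p from 0.0529 to 0.0926.

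Set beside either single knockdown, the double knockdown had more carriers higher than lower. Against the Msi1 knockdown the double knockdown had 22 carriers higher and 7 lower, with 56% of all tested genes called (29.9% higher and 26.2% lower). With upper-quartile scaling this split was 18 and 13. Ranges did not overlap for 22 higher and 12 lower carriers, and for 63.6% of all tested genes. UCP2 was higher by 1.36 ± 0.12 (adjusted p = 3.2e-07), SLC25A10 by 0.76 ± 0.13 (adjusted p = 0.00015) and SLC25A1 by 0.67 ± 0.08 (adjusted p = 4.4e-06). SLC25A34 was lower by 0.95 ± 0.14 (adjusted p = 3e-05), SLC25A27 by 0.89 ± 0.31 (adjusted p = 0.019) and SLC25A37 by 0.66 ± 0.08 (adjusted p = 5.8e-06). The SLC25A27 difference ended without Msi1 knockdown replicate 2 (adjusted p = 0.112) or double knockdown replicate 1 (adjusted p = 0.103). After adjustment for the library trend the count dropped from 29 to 2, those of SLC25A13 and UCP2.

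Against the Msi2 knockdown the double knockdown had 20 carriers higher and 6 lower, against 45.2% of all tested genes (22.7% higher and 22.5% lower). Ranges did not overlap for 24 higher and 8 lower carriers, and for 55.5% of all tested genes. SLC25A25 (0.57 ± 0.07, adjusted p = 1e-05), SLC25A33 (0.47 ± 0.08, adjusted p = 9.3e-05) and SLC25A4 (0.46 ± 0.07, adjusted p = 2.2e-05) had the largest rises, and SLC25A29 (-0.68 ± 0.12, adjusted p = 0.00038), SLC25A35 (-0.61 ± 0.09, adjusted p = 5.1e-05) and SLC25A42 (-0.48 ± 0.11, adjusted p = 0.0022) the largest falls. After adjustment for the library trend the count was 11.

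The double knockdown was then set against the sum of the single changes. For 17 carriers it was above that sum and for 7 below it, against 40.3% of all tested genes (21.3% above and 19.1% below). UCP2 had the largest departure, 0.93 ± 0.17 (adjusted p = 0.00044): the single changes summed to a fall, and the level in the double knockdown was that of control. SLC25A10 departed by 0.61 ± 0.19 (adjusted p = 0.015), SLC25A11 by 0.54 ± 0.11 (adjusted p = 0.00089) and SLC25A13 by 0.50 ± 0.08 (adjusted p = 0.00025). On the negative side, SLC25A29 departed by -0.84 ± 0.17 (adjusted p = 0.0019), SLC25A16 by -0.64 ± 0.09 (adjusted p = 7.5e-05) and SLC25A37 by -0.58 ± 0.12 (adjusted p = 9e-04). SLC25A16 rose to about the same level in all 3 knockdowns rather than to the sum of the single rises.

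With it as a covariate, 3 of the 24 departures kept their call: SLC25A13 at 0.39 (adjusted p = 0.044), SLC25A16 at -0.59 (adjusted p = 0.00508) and SLC25A25 at -0.62 (adjusted p = 0.00582). UCP2 kept its sign at 0.36 (adjusted p = 0.299). Those of SLC25A13 and SLC25A16 held in every alternative that was run.

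**Figure D4:**
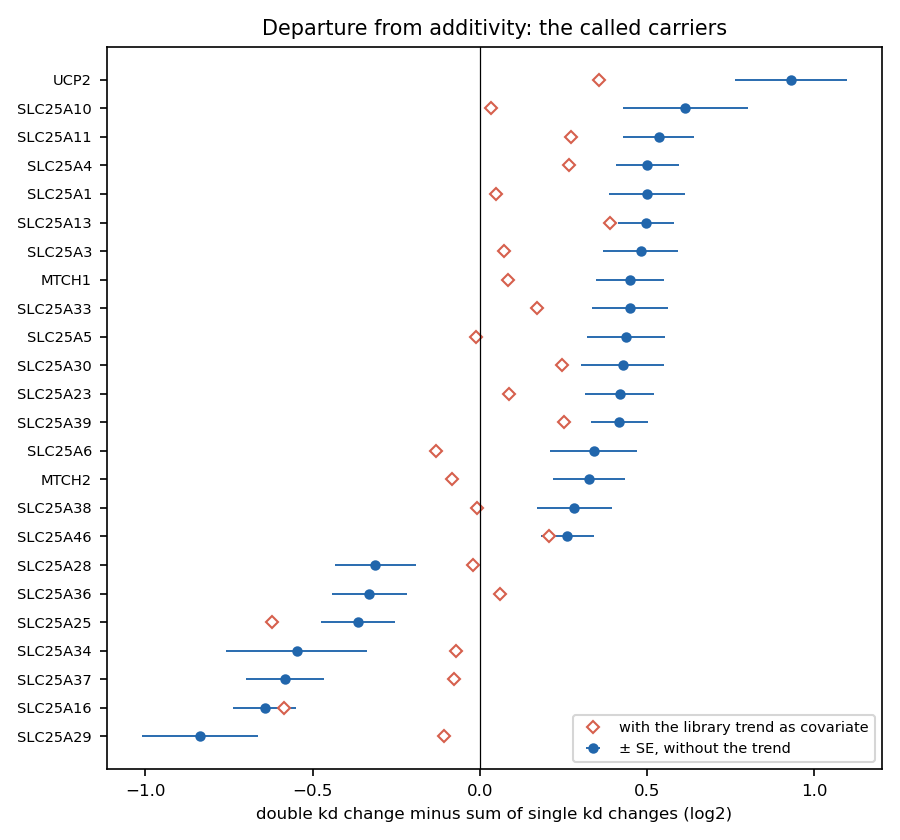
Log2 departure of the double knockdown from the sum of the single changes for the 24 called carriers (filled points, ± SE), with the value obtained when the library trend is a covariate (open diamonds). Most diamonds lie near zero, while SLC25A13, SLC25A16 and SLC25A25 stay at 0.39, -0.59 and -0.62.

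Summed over all carriers, the RNA of the family was highest in the double knockdown. The sum was 3516 ± 105 CPM in control (SD, n = 3), 3360 ± 209 in the Msi1 knockdown, 3412 ± 203 in Msi2 knockdown cells and 3988 ± 142 in the double knockdown. The double knockdown libraries, at 3877 to 4147, were above all others, which ran from 3192 to 3602. SLC25A3, SLC25A5 and SLC25A6 made up 48.6% to 55.9% of the carrier counts, with the share in the double knockdown at 54.8% to 55.9%. The sum went down as the trend score went up also within groups: the Msi2 knockdown library with the lowest score, -0.39, had 3592 CPM, and that with the highest, 1.06, had 3192 CPM. RNA encoded by the mitochondrial genome itself was 5.27% to 6.05% of counts in the double knockdown and 5.71% to 7.89% in the other groups. Its part in this sum was not tested. In the fit that left out mitochondrially encoded genes, 28 carriers were called in the double knockdown, among 7691 called genes. The main fit also called 28 carriers there, among 7796 called genes (51.9% of all tested genes).

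**Figure D5:**
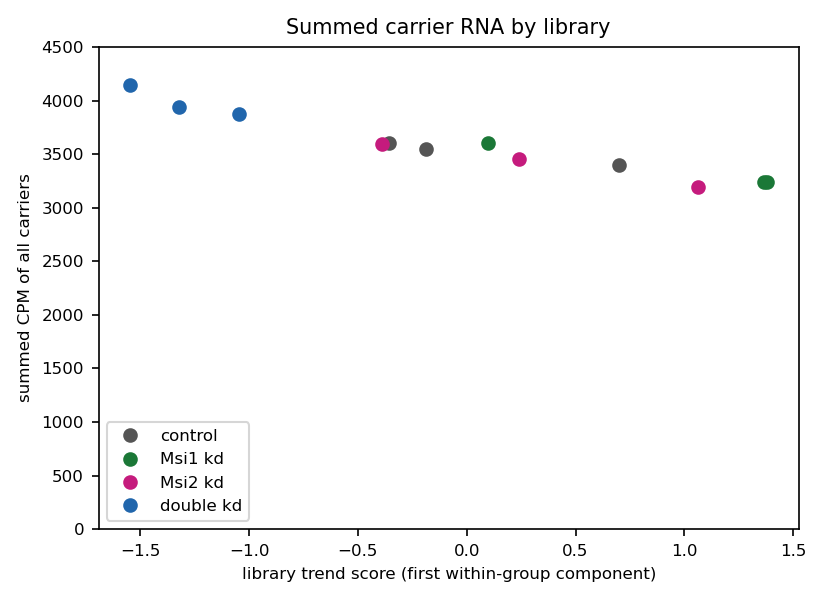
Summed CPM of all carriers in each library (axis from 0) against the library's trend score, coloured by group. The 3 double knockdown libraries have the lowest scores and the highest sums, 3877 to 4147 CPM.

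Carriers reach the inner membrane through the TIM22 route, which uses the receptor TOMM70, the small TIMM chaperones and the TIMM22 complex. Of 10 genes of this route, 7 rose and none fell in the double knockdown, against 26.6% and 25.3% of all tested genes. Whether this count, and those of the enzymes and other transporters below, hold after adjustment for the library trend was not tested. In the Msi1 knockdown 3 rose and 1 fell (18.5% and 20.9% of all tested genes), and in the Msi2 knockdown none rose and 2 fell (16.7% and 13.6%). TOMM70A fell by 0.53 ± 0.07 in the Msi1 knockdown (adjusted p = 3.1e-06), from 152 to 168 CPM in control to 107 to 118. TIMM10, a small chaperone of the intermembrane space, rose by 0.61 ± 0.11 in the double knockdown (adjusted p = 0.00011).

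Among 8 enzymes of the malate-aspartate and citrate shuttles, which work with SLC25A1, SLC25A11, SLC25A12 and SLC25A13, 6 rose and 1 fell in the double knockdown, where 51.9% of all tested genes were called. In the Msi1 knockdown 1 rose and 1 fell (39.3% of all tested genes), and in the Msi2 knockdown 1 rose and none fell (30.3%). ACLY, which splits the exported citrate, stood at 499 to 539 CPM in control, 216 to 228 in the Msi1 knockdown and 302 to 317 in the double knockdown. It fell by 1.23 ± 0.06 (adjusted p = 3.9e-11) and 0.74 ± 0.06 (adjusted p = 2.7e-08) and was not called in the Msi2 knockdown. ME1, the cytosolic malic enzyme, rose by 0.58 ± 0.07 in the double knockdown (adjusted p = 2.1e-06).

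Of 5 enzymes of the carnitine shuttle, which work with SLC25A20, none rose in any knockdown, and 3, 1 and 4 fell in the Msi1, Msi2 and double knockdowns, against 20.9%, 13.6% and 25.3% of all tested genes. CPT1A, the enzyme of entry, fell by 0.59 ± 0.06 in the Msi1 knockdown (adjusted p = 1.1e-07) and by 0.60 ± 0.06 in the double knockdown (adjusted p = 6.8e-08). CPT2 fell in all 3, by 0.37 ± 0.06 in the Msi2 knockdown (adjusted p = 0.00023). Of 19 other transporters of the mitochondrial membranes, 5 rose and 7 fell in the Msi1 knockdown, 3 rose and 4 fell in the Msi2 knockdown, and 6 rose and 4 fell in the double knockdown. In all, 63.2%, 36.8% and 52.6% of them were called, against 39.3%, 30.3% and 51.9% of all tested genes. The serine transporter SFXN1 and the ion exchanger LETM1 rose by 0.44 ± 0.06 (adjusted p = 3e-05) and 0.42 ± 0.06 (adjusted p = 1.7e-05) in the Msi2 knockdown.

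Musashi proteins are known to bind short UAG-containing sites in 3′ untranslated regions (UTRs), so the principal transcripts of the carriers in GENCODE 29 (build GRCh38) were searched. The strings were GTAGT and ATAGT, then GTTAGT and ATTAGT, and lastly GTTTAGT with its partner ATTTAGT, read in the transcript sequence itself. These strings do not contain each other. Of 53 carriers, 32 (60.4%) had a match, against 61.8% of 18497 coding genes with a 3′ UTR, and the density was 1.76 against 2.05 matches per kilobase. In the first 300 bases of the UTR, 18 of 50 carriers with a UTR of that length (36%) and 34.4% of 14386 coding genes had one. UCP2, SLC25A5, SLC25A11 and SLC25A25 were among those with none. SLC25A13 had 4 in 971 bases, SLC25A24 had 11 in 2617 and SLC25A16 had 10 in 5431. The first match of each of these 3 carriers is shown, with the motif in capitals and 11 bases to each side. They were chosen by hand among carriers with called changes. Others with a match and a larger change than SLC25A24, among them SLC25A21 and SLC25A32, are not shown. All sites shown are exonic, in the 3′ UTR and on the minus strand.
SLC25A13, chr7:96121159-96121185: tcagccctgggATAGTgctgtcttttt
SLC25A24, chr1:108136451-108136477: tgttcaaaatcATAGTtttaatgtgtt
SLC25A16, chr10:68482530-68482556: tgatttgctctATAGTagaatatttaa
Carriers with and without a match were thus found among both the rises and the falls. A match describes these letters only, and binding was not measured in these data.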

How the data were processed

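The deposited table held estimated counts per gene as whole numbers, unscaled between libraries. Kallisto 0.42.1, CASAVA 1.4 and hg19 are named without role, per the submitters' processing notes. The sources used here do not give the transcript set, strandedness or filters, so estimates of near-identical and overlapping genes depend on how reads were split. Exons of 24 of the 56 genes overlap another gene in GENCODE 29, 22 of them on the opposite strand. Besides SLC25A21, those 22 include SLC25A5, SLC25A11, SLC25A22, SLC25A24, SLC25A25 and SLC25A35.

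Samples were grouped by title. Counts were fitted in edgeR 4.0.16 (R 4.3.3): filterByExpr by group (minimum count 10), TMM scaling, all 12 libraries in 1 model with 8 residual degrees of freedom, robust quasi-likelihood tests, two-sided, with Benjamini-Hochberg adjustment over 15021 genes at 0.05. The scripts were tested on simulated counts drawn independently for each library, without the library trend. That test therefore does not cover the effect of the trend on the calls. With 3 libraries against 3, an exact permutation test of a single gene cannot pass the threshold, so none was used. CPM are counts per 1e6 of the TMM-scaled total. Levels per length used the principal transcript of GENCODE 29. The library trend is the first component of deviations from group means, for genes whose log2 CPM exceeds 3, computed with a prior count of 2. Replicates differed by more than sampling noise in every pair (chi-square per degree of freedom 3.83 to 36.2).

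The members and lists were chosen with earlier results of these data known. The rule for genes given with values in each library took the 6 largest rises and falls in each comparison with control, the 3 largest in the others, and 14 well-known carriers; listed pathway genes were the 2 with the smallest p. Other members are named with fewer values, and 1 carrier and 1 sequence are not reported here. Alternatives were other scalings, DESeq2 1.42.0, other filters, thinned counts, no mitochondrially encoded genes, the library trend, a replicate block, only the compared groups, and leaving out each library. Calls in the alternatives were read for the carriers alone, not for the listed pathway genes.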

Additional observations from a re-analysis of the deposited data

Results flagged for a closer look

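These carriers are listed because the log2 change in the double knockdown departed from the sum of the single changes in edgeR's test of that difference. Double knockdown cells were positive for both tags, and single knockdown cells are described with 1 tag each. Carrying both viruses and a joint action of the shRNAs therefore cannot be told apart. Departures above the sum were those of UCP2 (0.93), SLC25A10 (0.61), SLC25A11 (0.54), SLC25A4 (0.50), SLC25A1 (0.50), SLC25A13 (0.50), SLC25A3 (0.48), MTCH1 (0.45), SLC25A33 (0.45), SLC25A5 (0.44), SLC25A30 (0.43), SLC25A23 (0.42), SLC25A39 (0.42), SLC25A6 (0.34), MTCH2 (0.33), SLC25A38 (0.28) and SLC25A46 (0.26). Departures below it were those of SLC25A29 (-0.84), SLC25A16 (-0.64), SLC25A37 (-0.58), SLC25A34 (-0.55), SLC25A25 (-0.36), SLC25A36 (-0.33) and SLC25A28 (-0.31). After adjustment for the library trend, 21 of the 24 lost their call, and 8 lost it when 1 library was left out. Those of SLC25A13 and SLC25A16 held in every alternative run. The double knockdown libraries have the lowest trend scores, so the trend and that group cannot be told apart.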

How the results depend on the processing

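The numbers of called carriers were 23, 14 and 28 against control in the Msi1, Msi2 and double knockdowns, 23 between the single knockdowns, 29 and 26 for the double against the Msi1 and Msi2 knockdowns, and 24 for the departure from additivity. Leaving out 1 library gave 15 to 23, 12 to 16, 25 to 29, 17 to 23, 20 to 31, 21 to 25 and 18 to 26 in that order. With the library trend as a covariate, 24 were called in the Msi2 knockdown, 2 and 11 for the double against the Msi1 and Msi2 knockdowns, and 3 for the departure. Upper-quartile scaling split the double against the Msi1 knockdown into 18 higher and 13 lower, in place of 22 and 7.

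Every reversal came with the library trend as a covariate. They were UCP2 in the double knockdown against control (-0.30), and, against the Msi1 knockdown, SLC25A29 (0.28), MTCH1 (-0.0907), MTCH2 (-0.0662), SLC25A4 (-0.0265), SLC25A6 (-0.10), SLC25A35 (0.14), SLC25A3 (-0.0431) and SLC25A32 (-0.0193). Against the Msi2 knockdown they were SLC25A43 (-0.0355), SLC25A6 (-0.0165) and SLC25A37 (0.0388). For the departure they were MTCH2 (-0.0828), SLC25A5 (-0.00996), SLC25A6 (-0.13), SLC25A38 (-0.00685) and SLC25A36 (0.0607). The cause was not tested. Calls held in every alternative for 12 of 23, 8 of 14 and 16 of 28 carriers in the Msi1, Msi2 and double knockdowns. Thinning to the smallest library ended the calls of SLC25A21 in the Msi2 (adjusted p = 0.163) and double knockdowns (adjusted p = 0.0512) and of SLC25A42 in the double knockdown (adjusted p = 0.0522). It also ended those of SLC25A10, SLC25A14, SLC25A17, SLC25A22, SLC25A28, SLC25A40 and SLC25A46 in the Msi1 knockdown (adjusted p from 0.0673 to 0.363), of SLC25A32 in the Msi2 knockdown (adjusted p = 0.0792) and of SLC25A10 in the double knockdown (adjusted p = 0.272).

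The replicate numbers did not pair the libraries throughout. In deviations from group means, 18 correlations between libraries of the same number ran from -0.54 to 0.70, with a median of 0.16. Those among the second libraries of control, Msi1 and Msi2 knockdowns were 0.59, 0.68 and 0.70. With the second double knockdown library they were -0.06, -0.10 and -0.02. Only 1 library was closest to its own number in every other group. The fit with a replicate block called 24, 17, 29, 24, 30, 26 and 24. Depth limits UCP3 and SLC25A27, with at most 19 and 30 counts in a library.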
